A study of Mus musculus with 282 samples.

Results

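The 36 genes described here encode coagulation and complement proteins of mouse liver: 21 coagulation and fibrinolysis genes and 15 complement genes, taken by symbol from a table of 15907 genes. All 36 reached a mean of at least 1 RPM (reads scaled to a common library size) in both deposited tables. The series measured liver mRNA by 3′ tag sequencing in 282 libraries around the day, in mice that differed in feeding schedule, in the clock gene Bmal1 and in signalling through mTOR, the kinase that couples nutrient supply to growth. Members were listed by function, with earlier results of these data known, and the floor of 1 RPM used measured values.

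Hepatocytes make most circulating clotting and complement proteins. In coagulation, contact factors and vitamin K dependent proteases form a cascade that ends in thrombin, which cleaves fibrinogen, a protein assembled from the chains Fga, Fgb and Fgg, into fibrin. Serpins and protein C restrain the cascade, and plasmin, made from Plg, dissolves the clot. In complement, recognition proteins such as the mannose-binding lectins activate C3, and the terminal components assemble a pore in the target membrane. Fibrinogen and C3 are also acute phase proteins, whose genes are induced in hepatocytes during inflammation through interleukin 6 and related signals.

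All mice were male C57BL/6J, kept singly in a cycle of 12 h light and 12 h dark, and RNA came from the lateral liver lobe. ZT counts hours from lights on. The first table holds 13 arms with 3 mice at each of ZT 2, 6, 10, 14, 18 and 22, so 18 libraries an arm. Wild-type (WT) mice without injection were night fed, fed ad libitum or fed arrhythmically. Arrhythmically fed WT mice were also injected with AZD8055, an inhibitor of the mTOR kinase, at dawn or at dusk. Night-fed WT and whole-body Bmal1 knockout (BMKO) mice were each left without injection, injected with vehicle, or injected with rapamycin, an inhibitor of mTOR complex 1. Night-fed mice with a liver knockout of Tsc1, a brake on that complex, or of Raptor, a subunit of it, were compared with night-fed Albumin-Cre mice. The Albumin promoter drives Cre in hepatocytes, so other liver cells keep the genes. The second table holds 3 WT arms injected with tunicamycin, which blocks N-glycosylation and stresses the endoplasmic reticulum: night fed, arrhythmically fed, and arrhythmically fed with dusk AZD8055, with 4 mice at each of ZT 4, 10, 16 and 22. The labels give no doses, ages or times for the other injections. Because the AZD8055 arms were compared with mice that received no injection, drug and injection cannot be told apart.

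Deposited values trace back to 0.706 to 14.3 M reads per library in the first table (median 8.51 M) and to 4.85 to 10.1 M in the second (median 7.71 M), and 3 libraries lay under 3 M. Levels below are in RPM. A 3′ tag library gives 1 tag per transcript end, so levels of different genes were compared without a length correction. In the liver knockouts the targeted gene was lower: Tsc1 averaged 7.23 RPM against 14.6 RPM in Albumin-Cre livers, a log2 difference of −0.99, and Rptor averaged 5.10 against 8.88 RPM, a log2 difference of −0.80. Reads of Arntl, the gene of Bmal1, averaged 10.37 RPM in untreated BMKO and 13.01 RPM in WT livers. A 3′ tag can lie outside a deleted part, so Arntl does not check these labels. Dbp, a direct target of the clock, reached 133.8 RPM in untreated WT and 12.7 RPM in untreated BMKO livers. The 11 hepatocyte markers summed to between 27608 and 109500 RPM over the first table and were all detected. In whole liver, fewer cells of a type and less RNA per cell cannot be told apart.

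The proximal promoters of the genes whose levels moved most with AZD8055 and around the day are shown first, each 250 bases before to 50 bases after the start, from RefSeq on GRCm38.p6. The 3 fibrinogen genes lie side by side on chromosome 3: Fgg at chr3:83007724-83015049 on the plus strand, Fga at chr3:83026076-83033627 on the plus strand and Fgb at chr3:83040141-83049863 on the minus strand. Klkb1, which encodes plasma prekallikrein, lies at chr8:45266689-45294859 on the minus strand, and C3, the central complement protein, at chr17:57203970-57228136 on the minus strand. Printed windows are chr3:83007474-83007773 for Fgg, chr3:83025903-83026202 for Fga, chr3:83049814-83050113 for Fgb, chr8:45294786-45295085 for Klkb1 and chr17:57228087-57228386 for C3, each read 5′ to 3′ on the gene's strand. Capitals mark 3 motifs on either strand: the HNF1 core GTTAAT, the C/EBP motif TTGCNNAA and CTGGGAA, the core of the interleukin 6 response element.
Fgg: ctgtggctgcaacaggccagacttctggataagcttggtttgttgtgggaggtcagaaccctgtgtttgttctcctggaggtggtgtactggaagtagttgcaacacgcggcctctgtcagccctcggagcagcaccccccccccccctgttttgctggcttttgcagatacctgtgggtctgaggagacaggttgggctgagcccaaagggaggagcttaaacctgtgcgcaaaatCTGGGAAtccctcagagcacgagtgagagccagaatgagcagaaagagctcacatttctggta
Fga: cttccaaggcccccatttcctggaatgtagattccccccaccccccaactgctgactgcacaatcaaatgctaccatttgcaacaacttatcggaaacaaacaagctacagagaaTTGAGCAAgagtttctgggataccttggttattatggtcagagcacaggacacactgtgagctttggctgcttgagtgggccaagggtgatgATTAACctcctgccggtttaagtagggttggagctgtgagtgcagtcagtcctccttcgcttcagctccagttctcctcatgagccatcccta
Fgb: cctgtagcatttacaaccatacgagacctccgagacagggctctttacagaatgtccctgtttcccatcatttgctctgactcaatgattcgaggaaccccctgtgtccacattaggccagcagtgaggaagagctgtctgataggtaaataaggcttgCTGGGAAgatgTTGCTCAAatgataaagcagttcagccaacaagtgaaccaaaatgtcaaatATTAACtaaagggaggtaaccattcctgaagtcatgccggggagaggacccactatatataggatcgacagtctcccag
Klkb1: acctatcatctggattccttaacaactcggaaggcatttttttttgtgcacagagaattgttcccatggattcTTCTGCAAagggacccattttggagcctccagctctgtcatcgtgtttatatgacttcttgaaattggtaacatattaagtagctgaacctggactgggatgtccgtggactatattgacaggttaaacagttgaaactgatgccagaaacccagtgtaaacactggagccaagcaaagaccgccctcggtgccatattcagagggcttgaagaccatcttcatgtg
C3: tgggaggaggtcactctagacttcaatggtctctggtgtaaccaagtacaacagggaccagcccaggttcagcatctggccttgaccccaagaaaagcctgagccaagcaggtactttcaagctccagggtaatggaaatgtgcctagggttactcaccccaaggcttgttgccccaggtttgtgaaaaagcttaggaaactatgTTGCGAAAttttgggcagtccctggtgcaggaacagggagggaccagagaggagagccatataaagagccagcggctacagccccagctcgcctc
In Fgb all 3 motifs stand within 100 bases before the start, at −29 (HNF1), −80 (C/EBP) and −91 (interleukin 6 response). Fga has the HNF1 core at −43 and the C/EBP motif at −135, Fgg has the interleukin 6 core at −13, Klkb1 has a C/EBP motif at −177 and C3 has one at −45. Windows and offsets count from RefSeq starts. The gene spans above are from GENCODE, whose starts for Fga and Klkb1 differ from those of RefSeq.

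RefSeq windows were found for 29 of the 36 members, 30 windows in all. The HNF1 core stood in 9 of the 30 (30.0%) and in 7.10% of 32851 windows genome-wide outside chromosome 18. The C/EBP motif stood in 10 (33.3%, against 10.8%) and the interleukin 6 core in 7 (23.3%, against 11.1%). The HNF4 motif CAAAGTCCA was in none of the members' windows and in 0.475% of all, the E-box CACGTG was in none and in 7.15%, and the D-box TTANGTAA was in 1 and in 2.32%. Both strands were searched for all 6 motifs, whose matches were counted separately also where 2 overlap. A match is a description of letters only.

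Averaged over the 13 arms of the first table, levels of the members spanned from 7390 RPM for Fgb to 15.0 RPM for F11, which encodes coagulation factor XI. C3 followed Fgb at 2407 RPM, then Fgg at 2093 RPM and Fga at 1496 RPM. At the low end stood Pros1, which encodes protein S, at 55.4 RPM, C2 at 45.8 RPM and F11. The members' summed level averaged 23920 RPM in night-fed WT liver, 19700 RPM after Raptor loss and 42995 and 43169 RPM after dawn and dusk AZD8055. Between the arm with the lowest and the arm with the highest mean, C3 differed 4.58-fold, F12 4.29-fold and Fga 4.20-fold, while Masp1, which encodes a lectin pathway protease, differed 1.25-fold. The highest arm mean was that of dawn AZD8055 for Fgb, of untreated BMKO for C3, F12 and Plg and of BMKO with rapamycin for C9. The lowest was that of Tsc1 knockout for C3 and F12 and of Raptor knockout for Fgb.

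**Figure D1:**
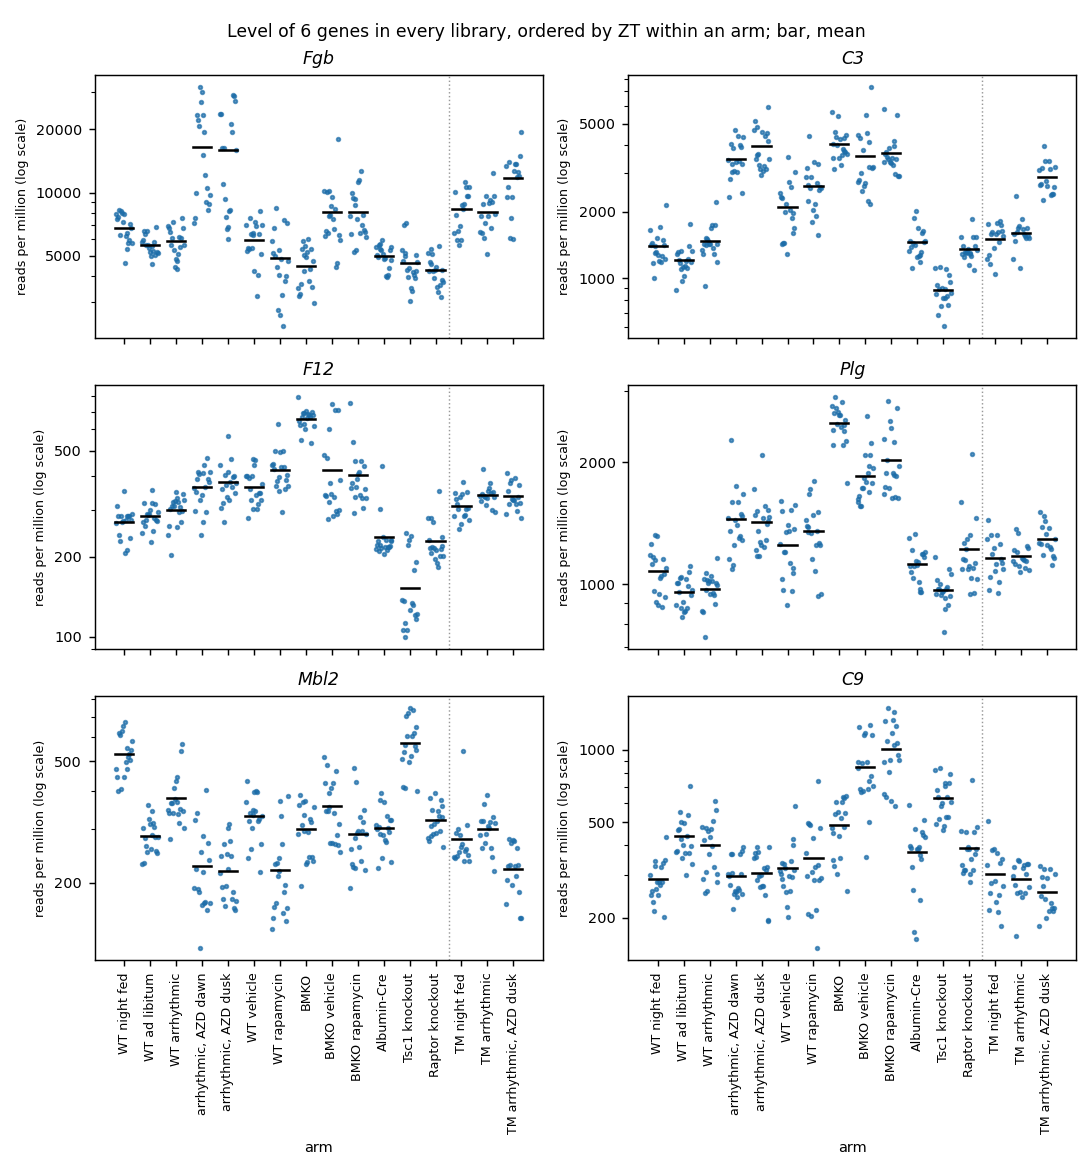
Level (RPM, log axis) of Fgb, C3, F12, Plg, Mbl2 and C9 in each of the 282 libraries, by arm; points are libraries ordered by ZT, bars are arm means and the dotted line separates the tunicamycin (TM) arms. Fgb is highest after AZD8055 (AZD), F12 and Plg in BMKO liver, and Mbl2 in night-fed WT and Tsc1 knockout liver.

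After dawn AZD8055 the fibrinogen chains, C3 and most inhibitors were higher in arrhythmically fed liver, and 4 members were lower. Of the 36 daily means, 20 were higher and 4 lower than without injection, with a median log2 difference of 0.22 (limma, Benjamini-Hochberg adjusted p under 0.05 over 12413 genes). Among all genes 41% passed, 21% higher and 20% lower, and the median was 0.02. Dusk AZD8055 gave 24 higher and 4 lower with a median of 0.30, and 50.8% of all genes passed, 27% higher and 23.8% lower. On the authors' own scaling the counts were 24 and 4 at dawn and 26 and 4 at dusk. All genes shifted there too, with medians of 0.085 and 0.084, and 67.4% and 63.5% of all genes that passed were higher. Both comparisons share the uninjected arrhythmic libraries.

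Clot formation moved furthest. Fga lay at 623.5, 836.9 and 1351 RPM (lowest, median, highest of 18 libraries) without injection and at 1538, 2600 and 6426 RPM after dawn AZD8055, so the arms did not overlap. The log2 difference of its daily means was 1.80 ± 0.10 (SE; limma adjusted p = 1.1e-17). After dusk AZD8055 Fga lay at 1152, 2726 and 7289 RPM, with a difference of 1.71 (adjusted p = 6.53e-17) and overlap at the low end. Fgb rose from 4308, 5874 and 7564 RPM to 7136, 13544 and 31978 RPM at dawn, a log2 difference of 1.33 (adjusted p = 5.97e-16), and to 6036, 16066 and 29221 RPM at dusk, a difference of 1.25 (adjusted p = 4.24e-15). The arms of Fgb overlapped at both injection times. Fgg rose from 1010, 1405 and 1806 RPM to 2038, 3273 and 9467 RPM at dawn without overlap, by 1.57 (adjusted p = 1.76e-15), and to 1543, 3968 and 9537 RPM at dusk, by 1.49 (adjusted p = 1.01e-14). The other 2 clot formation genes, F5 (factor V) and F13b (the carrier subunit of factor XIII), did not pass in either comparison.

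Among vitamin K dependent factors, 4 of 6 were higher after dawn AZD8055 and 6 of 6 after dusk AZD8055, with median log2 differences of 0.22 and 0.27. The largest was Pros1, the cofactor of protein C, at 0.80 ± 0.08 (limma adjusted p = 5.6e-11) after dawn AZD8055. Of the 4 contact pathway genes, F12 and Kng1 (factor XII and kininogen) were higher and F11 and Klkb1 lower in both comparisons. Klkb1 differed by −0.49 ± 0.07 at dawn and −0.35 ± 0.07 at dusk, with adjusted p = 1.55e-07 and 2.57e-05.

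Inhibitors and fibrinolysis genes rose in 5 of 6 cases at dawn (median 0.66) and 5 of 6 at dusk (median 0.67), and Serpind1, the gene of heparin cofactor II, did not pass. Vtn, which encodes the adhesion protein vitronectin, lay at 699.9, 1041 and 1348 RPM without injection and at 1366, 1792 and 2326 RPM after dawn AZD8055. It lay at 1446, 1926 and 2544 RPM after dusk AZD8055, above every uninjected library in both arms, with log2 differences of 0.83 and 0.93 (limma adjusted p = 1.52e-10 and 6.79e-12). Cpb2, whose product protects fibrin from plasmin, rose by 0.92 and 0.89.

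In complement, the amplification and control genes were higher in 3 of 4 cases at either injection time. C3 lay at 922.8, 1435 and 2216 RPM without injection, at 2330, 3371 and 4678 RPM after dawn AZD8055 and at 2935, 3621 and 5958 RPM after dusk AZD8055. Neither treated arm overlapped the uninjected one, and the log2 differences were 1.24 ± 0.09 (limma adjusted p = 7.15e-14) and 1.42 ± 0.09 (adjusted p = 1.16e-15). Mbl2, which encodes mannose-binding lectin C, was among the 4 genes that fell: it lay at 278.2, 356.5 and 568.3 RPM without injection and at 122, 203.8 and 402.5 RPM after dawn AZD8055, with overlap and a difference of −0.78. The terminal components had 1 gene higher (C8a) and 1 lower (C9) in both comparisons.

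**Figure D2:**
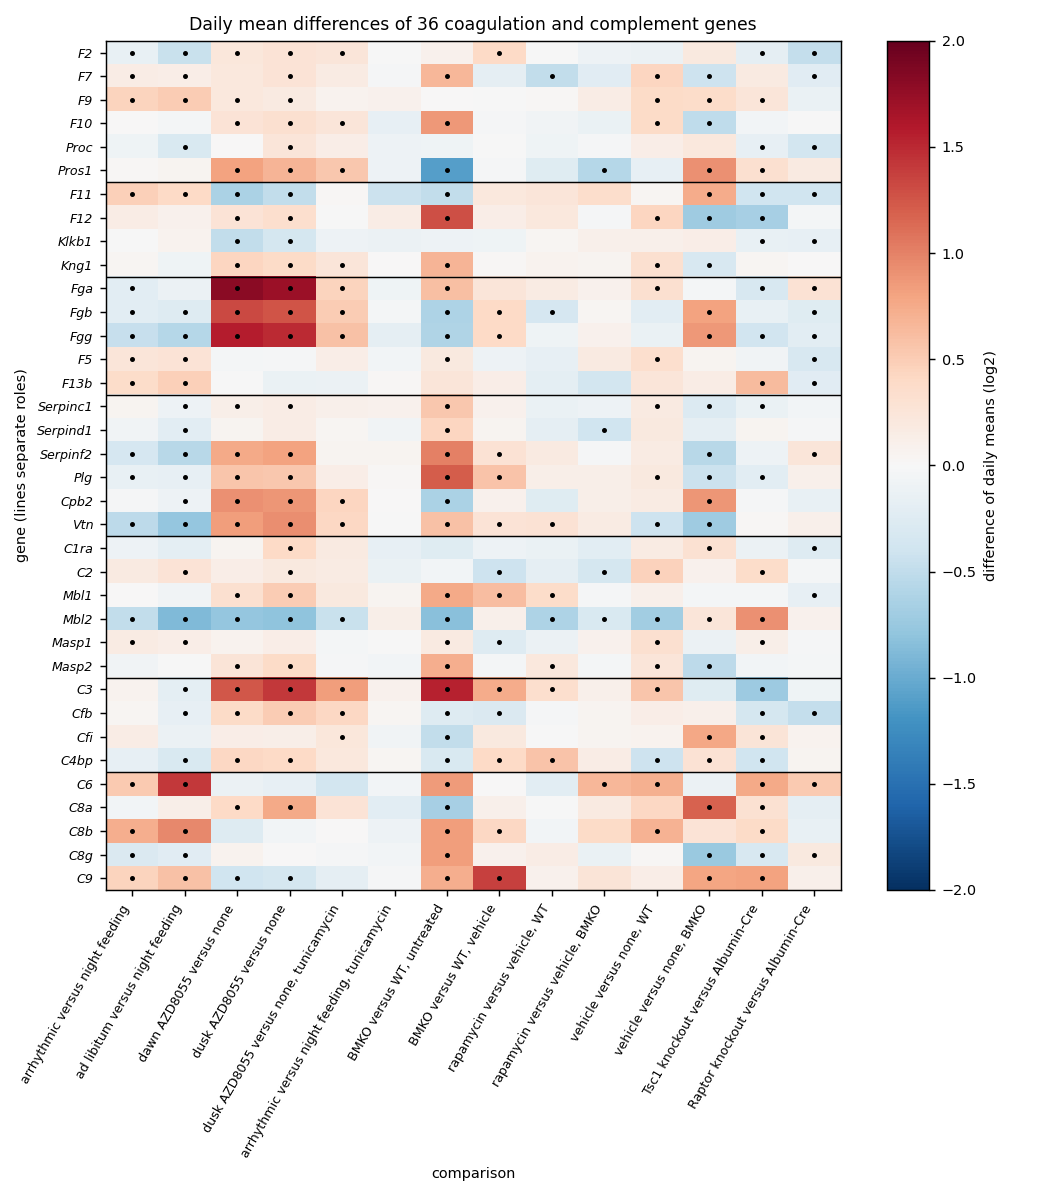
Log2 difference of daily means for the 36 genes (rows, ordered by role, lines between roles) in 14 comparisons (columns); a dot marks an adjusted p under 0.05. The fibrinogen chains and C3 are the darkest cells after AZD8055, and no gene carries a dot for arrhythmic against night feeding under tunicamycin.

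Other genes of the same pathways were counted against the same shares of all genes, 41% at dawn and 50.8% at dusk. Of 23 further coagulation and fibrinolysis genes tested, 12 were higher and 1 lower after dawn AZD8055 and 14 higher and 2 lower after dusk AZD8055, and of 24 further complement genes 8 and 11 were higher and 3 and 5 lower. Serpina10, the gene of protein Z-dependent protease inhibitor, rose by 1.63 and 1.46 log2 units. Acute phase genes that are not members were higher in 19 of 21 cases at dawn and 18 of 21 at dusk, with medians of 2.17 and 2.04. Saa2, an acute phase serum amyloid gene whose reads are hard to tell from those of its close copy Saa1, averaged 13.3 RPM without injection, 7722 RPM after dawn AZD8055 and 6424 RPM after dusk AZD8055. It was at 191 RPM in replicate 2 at ZT 22 of the dawn arm, and in the dusk arm replicate 3 held the lowest value at every time other than ZT 18. Of 6 neutrophil markers 2 are in the table: S100a8 and S100a9 had a summed level of 0.251, 1.55 and 4.00 RPM (lowest, median, highest) without injection, of 0.576, 3.88 and 112 RPM after dawn AZD8055 and of 0.809, 3.84 and 127 RPM after dusk AZD8055, and both passed as higher. Of 11 Kupffer cell markers 4 and 6 were higher and none lower, and their sum ranged from 222.6 to 383.7 RPM without injection and from 233.9 to 540.8 RPM after dawn AZD8055. Erythroid markers were lower in 5 of 5 and 3 of 5 cases. The part of these cells in the members' differences was not tested.

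The time of day at which the fibrinogen genes were high differed with the time of AZD8055. After dawn AZD8055 Fgb averaged 8210 RPM at ZT 2, 22115 at ZT 6, 29653 at ZT 10, 19278 at ZT 14, 10536 at ZT 18 and 8959 at ZT 22. After dusk AZD8055 it averaged 21171, 12219, 6785, 7772, 23274 and 23940 RPM at the same times, and without injection it stayed between 4714 and 6740 RPM. At ZT 10 the 3 dawn libraries held 31978, 26905 and 30077 RPM and the 3 dusk libraries 7637, 6683 and 6036 RPM. The treated arms thus had their high and low times about opposite each other. Fitted 24 h amplitudes (log2, mean to peak) were 0.96 ± 0.10 with a peak at ZT 10.17 at dawn and 0.998 ± 0.12 with a peak at ZT 22.54 at dusk, against 0.28 ± 0.06 without injection.

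Fga and Fgg followed the same course: after dawn AZD8055 Fga peaked at ZT 10.05 and Fgg at ZT 9.68, and after dusk AZD8055 they peaked at ZT 21.75 and ZT 21.70. Klkb1 ran the other way. After dawn AZD8055 it averaged 312.2 RPM at ZT 2 and 105.2 RPM at ZT 10, where its libraries held 88.7, 99.7 and 127 RPM against 298, 323 and 342 RPM without injection. After dusk AZD8055 its low values came at ZT 18 and ZT 22, with means of 153.2 and 164.6 RPM. Serpind1 had its lowest mean after dawn AZD8055 at ZT 10, 156.7 RPM against 276.5 RPM without injection.

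**Figure D3:**
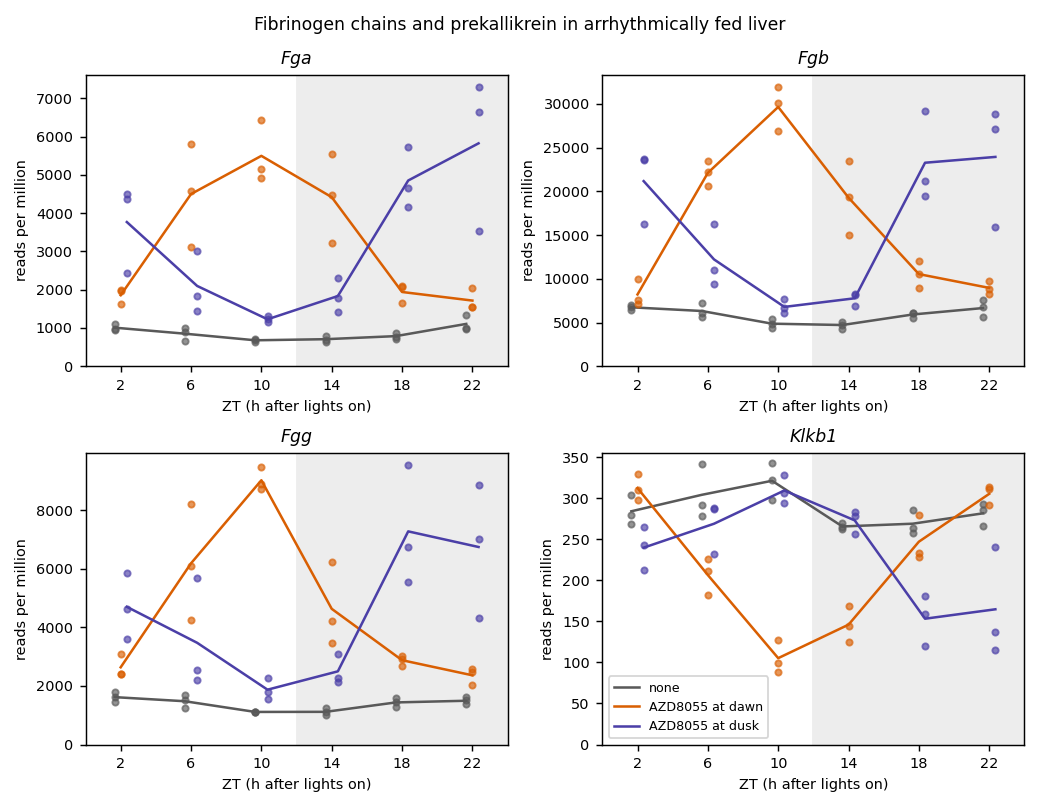
Level (RPM) of Fga, Fgb, Fgg and Klkb1 by ZT (hours after lights on; dark phase shaded) in arrhythmically fed liver without injection, after AZD8055 at dawn and after AZD8055 at dusk; points are libraries (3 per time) and lines join means. The fibrinogen chains are highest at ZT 6 to 14 after dawn injection and at ZT 18 to 2 after dusk injection, where Klkb1 is lowest.

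The rhythm differed from that without injection for 8 of 36 members after dawn AZD8055 and 4 of 36 after dusk AZD8055 (joint limma test of the cosine and sine terms, Benjamini-Hochberg adjusted), against 14.7% and 5.75% of all genes. The smallest adjusted p at dawn were 2.48e-08 for Fgb, 1.15e-07 for Klkb1 and 1.68e-07 for Fga, followed by Fgg, Pros1, Serpind1, Proc and F5. At dusk they were 0.000485 for Fgb, 0.00107 for Fga and 0.00404 for Fgg, with Klkb1 at 0.00916. Without replicate 1 none of the 4 dusk calls remained, with adjusted p = 0.054 for Fgb, 0.0814 for Fga and 0.152 for Fgg, and Fgg was also lost without replicate 3 (0.122).

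Dawn and dusk AZD8055 were then compared directly, a comparison added after the data had been seen. Rhythms differed for 14 of 36 members against 41.6% of all genes, with adjusted p = 2.03e-15 for Fgb, 6.33e-14 for Fga and 4.15e-13 for Klkb1 (limma). Leaving out a replicate number left 9 to 10. Daily means differed for 2 members: Proc, which encodes protein C, at −0.24 and C1ra, a subunit of the first complement component, at −0.34 (adjusted p = 0.0351 and 0.00247). With the effects aligned by the 12 h between injections, the rhythm difference passed for 0 of 36 members in limma and 0 in edgeR (3 at an unadjusted p under 0.05) and for 0% of all genes.

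Under tunicamycin, C3, fibrinogen and Pros1 were again higher after dusk AZD8055. In arrhythmically fed liver 12 of 36 daily means were higher and 1 lower (limma, adjusted over 12261 genes), against 8.85% of all genes (4.19% and 4.66%), with a median of 0.15. C3 lay at 1119, 1590 and 2348 RPM (16 libraries) with tunicamycin alone and at 2265, 2716 and 3951 RPM with dusk AZD8055, overlapping slightly, with a log2 difference of 0.84 ± 0.08 (limma adjusted p = 1.53e-09). Pros1 rose by 0.53, from 22.5, 36.7 and 46.5 RPM to 37.4, 53.2 and 73.6 RPM (adjusted p = 1.63e-06). Cfb, which encodes complement factor B, rose by 0.41 (adjusted p = 2.26e-06) and Fgg by 0.58 (adjusted p = 0.000182), and Mbl2 fell by 0.44. The acute phase list had 17 of 21 genes higher and 1 lower. No rhythm of a member differed in limma or edgeR (2 at an unadjusted p under 0.05), against 0.0326% of all genes. The difference from the effect without tunicamycin was not tested, because the tables hold other times of day and were normalized separately.

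Arrhythmic against night feeding under tunicamycin gave 0 of 36 daily means past the threshold in limma and 0 in edgeR (5 at an unadjusted p under 0.05), against 0.555% of all genes. The rhythm of Klkb1 differed (adjusted p = 0.0359, 1 of 36 against 4.36% of all genes), with peaks at ZT 5.55 and 9.68. That call was lost without replicate 1, 3 or 4 (0.0968, 0.207 and 0.191).

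Without tunicamycin, feeding schedule moved members both ways. Arrhythmic feeding gave 9 higher and 9 lower than night feeding, against 44% of all genes (23.9% and 20.1%), with a median log2 difference of 0.01. F9, which encodes coagulation factor IX, lay at 202.4, 247 and 333.9 RPM in night-fed and at 268.7, 334.7 and 406.8 RPM in arrhythmically fed liver, higher on average at 6 of 6 times, with a difference of 0.45 ± 0.05 (limma adjusted p = 3.03e-10). Fgg was lower, at 1010, 1405 and 1806 RPM against 1304, 1870 and 2544 RPM (−0.46, adjusted p = 2.28e-09). Vtn and Mbl2 differed by −0.53 and −0.49 (adjusted p = 1.05e-08 and 6.22e-07). All of these arms overlapped. The rhythm of Fgg passed at adjusted p = 0.0491, 1 of 36 against 4.62% of all genes, and did not pass without replicate 1, 2 or 3 (0.182, 0.324 and 0.292) nor in edgeR (0.0562).

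Ad libitum feeding gave 10 higher and 15 lower, against 53% of all genes (28.5% and 24.5%), with a median of −0.09. All 6 inhibitors and fibrinolysis genes were lower, while 3 of 5 terminal components were higher and 1 lower. Mbl2 lay at 399.2, 520.8 and 672.9 RPM in night-fed and at 231, 282.7 and 360.4 RPM in ad libitum fed liver, with no overlap and a difference of −0.89 ± 0.07 (limma adjusted p = 2.25e-13). Vtn lay at 1231, 1447 and 1776 RPM against 729.3, 848.8 and 1092 RPM, again with no overlap (−0.77, adjusted p = 3.51e-13). Fgg differed by −0.57 and F9 by 0.51 (adjusted p = 2.54e-12 and 3.44e-12). C6, an early component of the membrane pore, was the largest difference, chosen after its values were seen: 48.7, 94.9 and 152 RPM night fed and 164, 224 and 411 RPM ad libitum, a difference of 1.41 ± 0.14. No rhythm differed in limma or edgeR (1 at an unadjusted p under 0.05), against 0.854% of all genes. Acute phase genes outside the members were lower in 8 and higher in 2 of 21 cases, and under arrhythmic feeding lower in 9 and higher in 5.

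Without injection, plasminogen, C3, factor XII and most inhibitors were higher in Bmal1 knockout liver. Daily means of 19 were higher and 10 lower in BMKO than in WT night-fed liver, against 71.7% of all genes (34.3% and 37.4%), and the median was 0.21 against −0.06 over all genes. Of the inhibitors and fibrinolysis genes 5 of 6 were higher and Cpb2 was lower, and of the terminal components 4 of 5 were higher and C8a was lower. Plg lay at 877.8, 1078 and 1321 RPM in WT and at 1775, 2515 and 2894 RPM in BMKO liver, a log2 difference of 1.21 ± 0.08 (limma adjusted p = 3.81e-23). C3 lay at 1001, 1359 and 2138 RPM against 3135, 3938 and 5627 RPM, a difference of 1.54 ± 0.12 (adjusted p = 2.89e-19). F12 lay at 207, 273.9 and 351.9 RPM against 535.9, 670.1 and 791.5 RPM, a difference of 1.29 ± 0.11 (adjusted p = 4.12e-18). C8g, a subunit of complement component 8, differed by 0.84 (adjusted p = 7.88e-16). None of these 4 overlapped between genotypes. They were named for the smallest adjusted p, which favours genes without overlap, and the share of all genes without overlap was not counted.

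The fibrinogen chains parted from one another in BMKO liver: Fga was higher by 0.60, as C3 was higher, and Fgb and Fgg were lower by 0.62 and 0.61 log2 units. Pros1 was lower by 1.10. Fgb made up 15.6% of the members' summed RPM in BMKO and 28.5% in WT liver. Markers of other liver cells differed too: 7 of 11 Kupffer cell markers fell in BMKO and 2 rose, 6 of 10 sinusoidal endothelial markers fell and 2 rose, and 4 of 8 stellate and fibroblast markers fell and 1 rose. Their sums ranged from 128.7 to 455.9 RPM in BMKO against 137.8 to 444.3 RPM in WT liver for Kupffer cells, from 152.5 to 320.2 against 251.2 to 395.5 RPM for endothelial cells, and from 101.5 to 276.3 against 274.9 to 386.4 RPM for stellate cells. Cholangiocyte markers, of which 2 of 6 could be tested (1 higher, 1 lower), summed to between 39.7 and 82.0 RPM in BMKO against 10.8 to 44.4 RPM in WT liver. The summed hepatocyte markers ranged from 40874 to 53534 RPM in BMKO and from 66331 to 88306 RPM in WT liver. Their part in the members' differences was not tested. The rhythm of Fga differed between genotypes (adjusted p = 0.0135, 1 of 36 against 3.09% of all genes), a call lost without replicate 2 or 3 (0.204 and 0.231).

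After vehicle injection C9, Plg and C3 were higher in BMKO liver, and F12 and F10 did not pass. In BMKO against WT, 11 members were higher and 3 lower, against 21.7% of all genes (9.95% and 11.8%). On the authors' scaling 29 were higher and 0 lower, where the median of all genes shifted by 0.31, so that split is relative to a general shift. C9, the pore-forming component, lay at 200.5, 308.5 and 584.8 RPM in WT and at 358.4, 804.6 and 1262 RPM in BMKO, a difference of 1.37 ± 0.15 (limma adjusted p = 1.37e-12). Plg and C3 were again higher, by 0.57 and 0.74 (adjusted p = 1.36e-08 and 1.04e-06), and Mbl1 by 0.62 (adjusted p = 4.22e-06). In this arm the 6 BMKO libraries of replicate 1 stood apart: F12 was at 480, 469, 601, 750, 710 and 712 RPM in them at ZT 2 to 22 and between 277 and 388 RPM in the other 12. Fgb reached 18063 RPM in the replicate 1 library of ZT 22. Without those 6 libraries the split was 7 higher and 6 lower, with C3 at 0.49 and Mbl1 at 0.36 (adjusted p = 0.0014 and 0.00529), and leaving out a replicate number from both arms left 8 to 11.

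**Figure D4:**
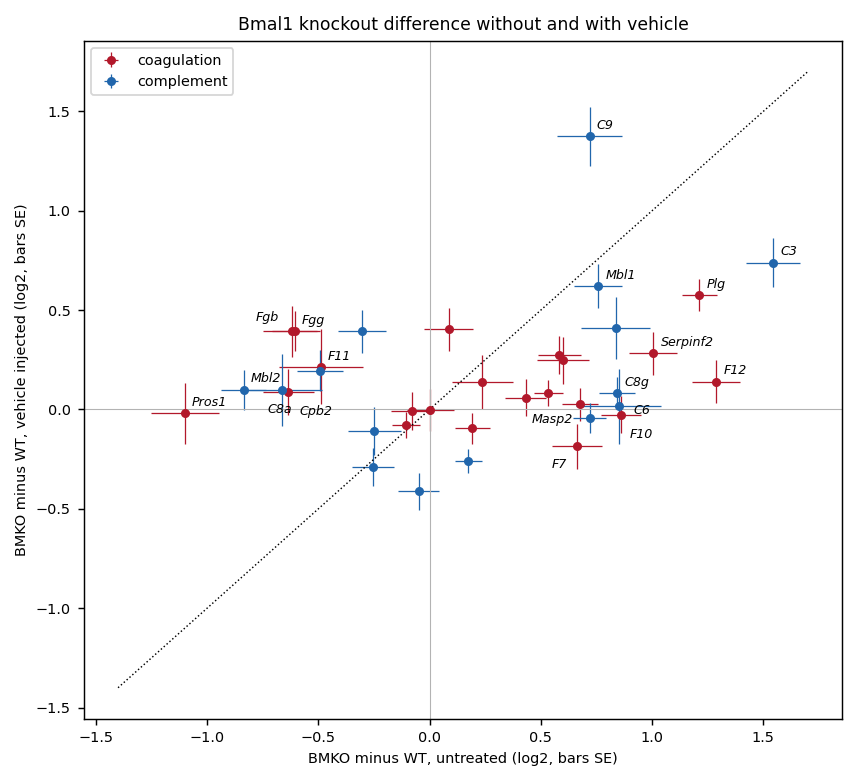
Log2 difference of daily means between BMKO and WT liver without injection (x axis) and after vehicle (y axis) for 21 coagulation and 15 complement genes; bars are standard errors and the dotted line marks equal differences. F12, Masp2 and F10 lie far below the line and Fgb, Fgg and C9 above it.

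The genotype difference itself changed with vehicle injection for 26 of 36 members, 16 more positive without injection and 10 more negative, against 57.1% of all genes (28.4% and 28.7%). On the authors' scaling the split was 6 and 16, with the median of all genes shifted by −0.43. F12 differed most surely, by 1.15 ± 0.15 (limma adjusted p = 1.11e-09), since it passed with 1.29 without injection and stood at 0.14 after vehicle (adjusted p = 0.398). Masp2, a lectin pathway protease, differed by 0.76 (adjusted p = 6.8e-09), Fgg by −1.002 (adjusted p = 1.19e-08) and F10, the gene of factor X, by 0.89 (adjusted p = 1.55e-08). Without the 6 replicate 1 libraries the split was 18 and 10.

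Vehicle alone moved 50.0% of members in WT liver, and 61.1% in BMKO liver, which is near the share of all genes there. In WT night-fed liver 15 were higher and 3 lower than without injection, against 27.3% of all genes (15.4% and 11.9%). On the authors' scaling 9 were higher and 5 lower, where the median of all genes shifted by −0.09. Mbl2 fell from 399.2, 520.8 and 672.9 RPM to 216.4, 331.8 and 432.5 RPM, by 0.69 (limma adjusted p = 1.55e-07). Masp1 rose by 0.32, C2 by 0.45 and C3 by 0.56 (adjusted p = 4.47e-05, 0.000107 and 0.000271). Without replicate 2 only 5 members passed and C3 was lost (0.0669). In BMKO liver 12 were higher and 10 lower, against 60.4% of all genes (31.3% and 29.1%), and 23 and 6 on the authors' scaling, where the median of all genes shifted by 0.31. C8g and Vtn fell by 0.74 and 0.71 and Fgg and Cpb2 rose by 0.86 and 0.89 (adjusted p = 5.13e-13, 1.15e-09, 1.8e-11 and 4.63e-10), and these 4 passed without the 6 replicate 1 libraries too. The split turned round without those libraries, to 8 higher and 14 lower, and stood at 11 and 12 without libraries under 3 M reads.

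Rapamycin moved 22.2% of members in WT and 13.9% in BMKO liver, near the shares of all genes. In WT liver 5 were higher and 3 lower than with vehicle, against 18.5% of all genes (9.8% and 8.72%). Mbl2 lay at 216.4, 331.8 and 432.5 RPM with vehicle and at 141, 203.6 and 385.8 RPM with rapamycin, a log2 difference of −0.62 ± 0.10 (limma adjusted p = 3.28e-06). C4bp, an inhibitor of the classical pathway, was higher by 0.57 (adjusted p = 5.67e-05) and F7, which encodes factor VII, lower by 0.50 (adjusted p = 0.000896). Mbl1 passed at 0.37 (adjusted p = 0.01) but not without replicate 2 or 3 (0.134 and 0.126). Leaving out a replicate number left 4 to 7 members, 1 higher and 3 lower without replicate 2, and edgeR called 5.

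In BMKO liver 1 member was higher and 4 lower with rapamycin, against 11.9% of all genes (6.32% and 5.57%): Serpind1 at −0.40, C2 at −0.36, Pros1 at −0.57, Mbl2 and C6 at 0.66 (limma adjusted p = 0.00193, 0.0055, 0.00781 for the first 3 and 0.0143 for C6). Without the 6 vehicle libraries of replicate 1 the split turned to 3 higher and 1 lower, and Serpind1, C2 and C6 no longer passed (0.198, 0.207 and 0.321). The rapamycin effect differed between genotypes for 2 members, C6 by 0.86 and F5 by 0.34, against 14.3% of all genes (7.83% and 6.42% by direction), and neither passed without those libraries (0.237 and 0.0673). Rhythm differences with rapamycin or vehicle, and between genotypes after vehicle, passed for 0 of 36 members in limma and in edgeR. At an unadjusted p under 0.05 there were 3 for vehicle in BMKO and 0 in the other 4 of these comparisons, and between 0% and 1.75% of all genes passed.

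In liver without Tsc1, Mbl2 and most terminal components were higher and C3 lower. In Tsc1 knockout against Albumin-Cre liver 11 were higher and 13 lower (limma, adjusted over 12267 genes), against 36.6% of all genes (18.6% and 18%). Mbl2 lay at 223.2, 301.1 and 392.4 RPM in Albumin-Cre and at 399.9, 564 and 747 RPM in Tsc1 knockout liver, with no overlap and a difference of 0.92 ± 0.08 (limma adjusted p = 2.37e-12). C3 fell from 1113, 1434 and 2024 RPM to 607, 876.6 and 1131 RPM, by 0.72 (adjusted p = 3.12e-10). F13b rose by 0.64 and Cfb fell by 0.35 (adjusted p = 3.65e-08 and 2.03e-07). Terminal components were higher in 4 of 5 cases and lower for C8g, and 3 of 4 contact pathway genes were lower. Leaving out a replicate number left 15 to 21 members past the threshold, the fewest without replicate 3, and 11 higher and 10 lower without replicate 1.

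In liver without Raptor, prothrombin, protein C, factor V and factor B transcripts were lower. There 4 were higher and 12 lower, against 42.4% of all genes (19.6% and 22.7%). On the authors' scaling 0 were higher and 26 lower, where the median of all genes shifted by −0.23. Cfb lay at 504.4, 635.5 and 790.3 RPM in Albumin-Cre and at 361.2, 459.8 and 552.5 RPM in Raptor knockout liver, a difference of −0.48 ± 0.05 (limma adjusted p = 3.14e-11). F2, the gene of prothrombin, lay at 1062, 1189 and 1584 RPM against 768.8, 855.3 and 989.6 RPM with no overlap (−0.47, adjusted p = 5.55e-10). Proc fell by 0.37 and F5 by 0.32 (adjusted p = 4.02e-07 and 4.37e-06). Of the clot formation genes 4 of 5 were lower and Fga was higher, and 3 of 6 vitamin K dependent factors were lower.

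Compared directly, Tsc1 knockout had 14 members higher and 8 lower than Raptor knockout liver, against 58% of all genes (30.8% and 27.2%), and 27 and 5 on the authors' scaling, where the median of all genes shifted by 0.25. F13b was higher by 0.86 and Mbl2 by 0.83, and C3 was lower by 0.63 and C8g by 0.51 (limma adjusted p = 4.34e-12, 7.12e-12, 1.95e-09 and 2.46e-09). Rhythm differences passed for 0 of 36 members in limma and in edgeR in either knockout, with 3 (Tsc1) and 0 (Raptor) at an unadjusted p under 0.05, against 0.00815% and 0% of all genes.

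Within arms, a 24 h rhythm was called most often for the fibrinogen chains and Klkb1. Night-fed WT liver had 6 of 36 (21.8% of all genes), ad libitum 3 (16.5%), arrhythmic 3 (7.95%), dawn and dusk AZD8055 9 each (20.9% and 19.5%), WT vehicle 1 (14.9%), and WT rapamycin 0 (5.12%). The BMKO arms had 0 each without injection, with vehicle and with rapamycin, in limma and in edgeR (5.61%, 5.49% and 0.274% of all genes). The count was 2 in the BMKO vehicle arm with the replicate number as a block, and 5 in the untreated arm and 1 in the vehicle arm in a joint fit of all arms. At an unadjusted p under 0.05 these 3 arms had 3, 3 and 1 members, and WT rapamycin, where edgeR also called 0, had 5. Albumin-Cre liver had 6 (23.3%), Tsc1 knockout 5 (24.4%), Raptor knockout 3 (17.5%), and the tunicamycin arms 6 night fed (15%), 2 arrhythmic (7.52%) and 14 with dusk AZD8055 (21.2%). No arm called 15 of the members. Fga was called in 10 of 16 arms, Klkb1 and Fgg in 8 each and Fgb in 7. In the arms with AZD8055, time of day and time since injection cannot be told apart.

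In night-fed WT liver Fga averaged 1352 RPM at ZT 2 and 700.9 RPM at ZT 14, with an amplitude of 0.44 ± 0.07 and a peak at ZT 3.04 (limma adjusted p = 0.000874). Fgg peaked at ZT 3.84 (0.35, adjusted p = 0.000874) and Serpinf2, which encodes the plasmin inhibitor alpha-2-antiplasmin, at ZT 3.87 (0.34, adjusted p = 0.00534). Fga had its peak at ZT 1.08 with ad libitum and at ZT 0.02 with arrhythmic feeding, at ZT 2.26 in Albumin-Cre, ZT 2.44 in Tsc1 knockout and ZT 3.53 in Raptor knockout liver, all within the first hours of light. Under tunicamycin the peak stood at ZT 21.29 in night-fed liver, and at ZT 20.59 with dusk AZD8055. Klkb1 peaked at ZT 8.96 in Albumin-Cre and ZT 8.50 in Raptor knockout liver, with amplitudes of 0.27 and 0.22. Many of these calls rest on each replicate: leaving out a number left 1 to 3 in night-fed WT, 2 to 3 in Albumin-Cre, 0 to 4 in Raptor knockout, 6 to 7 in the dawn AZD8055 arm and 6 to 8 in the tunicamycin arm with AZD8055.

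**Figure D5:**
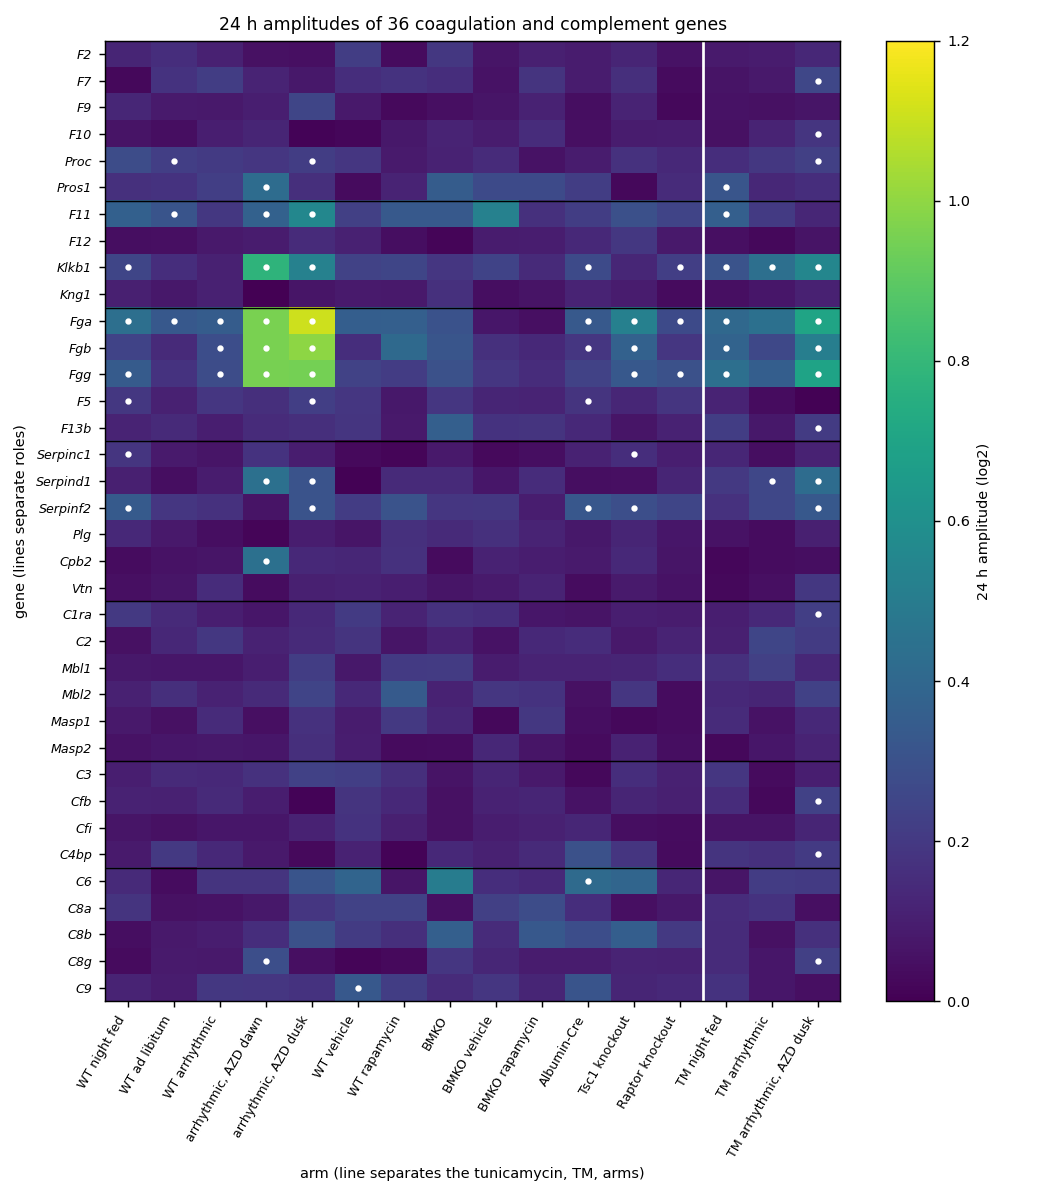
Fitted 24 h amplitude (log2, mean to peak) of the 36 genes (rows, by role) in 16 arms (columns; the line separates the tunicamycin, TM, arms); a white dot marks an adjusted p under 0.05. The fibrinogen chains after AZD8055 have the largest amplitudes, up to 1.11, and the 3 BMKO columns carry no dot.

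The genes whose arm means in the first table were most like the members' summed level were Lrg1, Sec61a1 and Ang, with Pearson r of 0.958, 0.953 and 0.950 over 13 arms, which share libraries with the members. Reads of some members cannot be assigned with certainty, because the counting strand is not stated. Gm20547 overlaps C2 and Cfb and Gm45753 overlaps Klkb1. The 3′ ends of Serpinc1, Serpind1, Plg and Masp2 overlap Zbtb37, Pi4ka, Slc22a3 and Tardbp on the other strand. Fbxw5 overlaps C8g on the other strand, and Fgg overlaps the long noncoding Gm30097. C1ra and Kng1 have close copies, C1rb and Kng2.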

How the data were processed

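Libraries of liver RNA were made with the QuantSeq 3′ kit, per the labels' protocols. The submitters' processing notes name STAR 2.7.3a, SAMtools, mm10 and GRCm38.p6; no counting program or normalization is named in the labels. The deposited signal values are read counts that the authors divided by a factor per library. Whole reads came back from the steps between values (tolerance 0.01 reads) for 99.913% of the values of the larger table and 100% of the tunicamycin table. The 197 genes off the step, none a member, were left out of fits with the Raptor arm.

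Recovered reads were rescaled by TMM, genes with a mean under 1 RPM were dropped, and log2(RPM + 0.5), a scale that understates low genes, was fitted with limma 3.58.1 (R 4.3.3, mean-variance trend) for each experiment. The design had named a count test for raw counts; since the values are scaled, limma took its place and edgeR 4.0.16 quasi-likelihood on the recovered reads was the alternative. Both were tested on simulated data. Daily means weighted times equally, rhythms were joint tests of 24 h cosine and sine terms, rhythmic members were found within each arm, and p-values were Benjamini-Hochberg adjusted over all genes at 0.05. Tables were tested separately. Overlap of arms is described for single members, and the share of all genes without overlap was not counted. Groups come from the labels, which name biological replicates. Named members have the smallest adjusted p (up to 4 per daily mean, 3 per rhythm) or are the 3 highest or lowest by level; any other was picked with its values known. Members and lists were chosen with earlier results of these data known. The direct comparison of dawn with dusk AZD8055, its 12 h alignment, and fits without 2 ad libitum or 6 BMKO vehicle libraries were chosen after seeing the data.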

Additional observations from a re-analysis of the deposited data

Results flagged for a closer look

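In night-fed liver with tunicamycin at ZT 16, 1 of the 4 libraries stood far above the other 3 for 3 of the members. Fgb was at 11280 RPM in the highest library and at 8733, 8345 and 8842 RPM in the others. Fgg was at 3351 RPM against 2195, 2016 and 2164 RPM. Klkb1 was at 251.2 RPM against 160.9, 144.2 and 144.0 RPM. These are 3 of 48 groups of 4 libraries examined, counted separately for each gene, and chance alone marks about 1 in 20 groups. The 3 marked groups hold the same 4 libraries, so they are not independent of each other and cannot be set against that rate.

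The difference between BMKO and WT liver was not the same without injection and after vehicle for 26 of 36 members (limma interaction test, adjusted p under 0.05). Among all genes 57.1% passed. The difference of the log2 differences was 1.149 for F12, 0.761 for Masp2, −1.002 for Fgg and 0.8863 for F10. Without the 6 BMKO vehicle libraries of replicate 1, which stood apart from the other 12, the count was 28. The rapamycin effect differed between BMKO and WT for 2 members, C6 by 0.8636 and F5 by 0.3379, against 14.3% of all genes. Neither member passed without those 6 libraries (limma adjusted p = 0.237 and 0.0673).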

How the results depend on the processing

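No daily mean difference of a single named gene was reversed. Amplitudes have no sign, so a reversal could not show for rhythms, and shifts of the peak were not compared. Of all values for named genes, 1241 kept their side of the threshold and 86 lost it, most of them with 1 replicate number left out. Genes named for the smallest adjusted p are more likely than others to keep it. Of the counts of members, 527 stayed within 1.5 times and 82 moved. Both tallies include refits that could not change. Leaving out libraries under 3 M reads altered only fits with untreated BMKO or WT rapamycin libraries. The joint fit left comparisons between tunicamycin arms unchanged. On the authors' scaling, daily means differed for 29 members between BMKO and WT after vehicle (14 otherwise) and for 26 in Raptor knockout liver (16 otherwise). With edgeR rapamycin in WT gave 5 (8 otherwise). A joint fit of all arms gave 8 for rapamycin in BMKO (5 otherwise). The rapamycin effect differed between genotypes for 6 members with the replicate block, 8 in the joint fit and 5 without shallow libraries (2 otherwise). The rhythm difference of arrhythmic against night feeding passed for 0 members with DESeq2 size factors, with the authors' scaling, with no filter, with edgeR and in the joint fit (1 otherwise), and that of untreated BMKO for 2 in the joint fit (1 otherwise). Rhythmic members under ad libitum feeding numbered 7 with the replicate block, 0 in the joint fit and 5 without 2 ad libitum libraries (3 otherwise), and under arrhythmic feeding 0 in the joint fit (3 otherwise). In the WT vehicle arm they numbered 2 with DESeq2 size factors, the authors' scaling, edgeR, the replicate block and the joint fit, and 0 with no filter (1 otherwise). With rapamycin in WT they numbered 1 with the replicate block and 6 in the joint fit (0 otherwise). The untreated BMKO arm had 5 in the joint fit, and the BMKO vehicle arm 2 with the replicate block, 1 in the joint fit and 1 without 6 BMKO vehicle libraries (0 otherwise for both). The Albumin-Cre arm had 3 in the joint fit (6 otherwise), and the arrhythmic tunicamycin arm 4 with the replicate block and 4 in the joint fit (2 otherwise). The causes of these changes were not tested.

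With each replicate number left out in turn, members with different daily means ranged from 8 to 11 for BMKO against WT after vehicle, 4 to 7 for rapamycin in WT, 1 to 5 for rapamycin in BMKO, 5 to 18 for vehicle in WT, 15 to 21 for Tsc1 knockout, 12 to 14 for Raptor knockout, 17 to 19 for ad libitum feeding, 13 to 18 for arrhythmic feeding, 18 to 23 for dawn AZD8055, 21 to 27 for dusk AZD8055, 10 to 15 for dusk AZD8055 with tunicamycin, 19 to 26 for the change of the BMKO difference with vehicle and 0 to 4 for the change of the rapamycin effect with genotype. Rhythm differences ranged from 0 to 0 for arrhythmic feeding, 0 to 1 with tunicamycin, 0 to 2 for untreated BMKO, 6 to 7 for dawn AZD8055, 0 to 3 for dusk AZD8055 and 9 to 10 for dawn against dusk. Rhythmic members ranged from 1 to 3 in night-fed WT, 0 to 2 ad libitum, 0 to 1 arrhythmic, 6 to 7 after dawn AZD8055, 3 to 5 after dusk AZD8055, 0 to 2 in WT vehicle, 0 to 1 in BMKO vehicle, 2 to 3 in Albumin-Cre, 1 to 5 in Tsc1 knockout and 0 to 4 in Raptor knockout liver, and in the tunicamycin arms 0 to 8 night fed, 1 to 3 arrhythmic and 6 to 8 with AZD8055. Leaving out a number also leaves fewer samples.

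Same-numbered libraries of compared arms showed little tendency to deviate together. The median correlation was 0 over 54 pairs of the feeding arms, 0.026 over 270 of the Bmal1 arms and −0.001 over 54 of the liver knockouts. It was 0.032 over 54 of the AZD8055 arms and 0.044 over 48 of the tunicamycin arms. Over 0.1 were 18, 77, 7, 17 and 9 of these pairs. Between times within an arm, same-numbered libraries deviated together most in BMKO with vehicle (median 0.481, 44 of 45 pairs over 0.1), and the medians were 0.244 in BMKO with rapamycin, 0.212 in night-fed WT, 0.211 and 0.19 after dawn and dusk AZD8055, 0.198 in WT with rapamycin, 0.15 in WT with vehicle, 0.114 in Raptor knockout and under 0.1 in the other 8 arms. Across arms the samples were therefore treated as sharing only a number, although a median near 0 cannot show that no libraries were handled together. Beside the counts above, the replicate block moved no count of members by over 1.5 times. In fits of several arms the block was shared by all of them, so it could not take up deviations particular to a single arm. The main fits treated the libraries of an arm as independent, so where same-numbered libraries deviated together, p-values of daily means can be too small. Low reads limit F11, whose mean of 15.0 RPM is the lowest of the members.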
